A study of Mus musculus with 49 samples.

Results

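Genes of skeletal muscle were followed in whole mouse ankles through arthritis induced by K/BxN serum. The 60 genes cover the thin and thick filaments, the Z disc and M band, calcium handling, energy supply, the myogenic regulators and the acetylcholine receptor. Members were taken as every probe set of the table annotated to 1 symbol on this list, with the probe set of the highest mean over 49 arrays standing for a gene. The arrays measured 57 of the 60 genes, among 8251 genes in all, and Mybpc2, Ampd1 and Ttn had no probe set with a single symbol. Autoantibodies in K/BxN serum inflame the joints of mice that receive it. All samples came from male B6 mice aged 6 weeks and are named by the day after the first serum injection. Ankles were sampled at day 0 (4 arrays), day 1 (2), day 3 (3), day 7 (4), day 12 (3) and day 18 (3), a total of 19 arrays. Cells of the synovial fluid (13 arrays) and leukocytes of peripheral blood (17 arrays) served as references without muscle.

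For ankles the labels name a mixed cell content and a separation of the whole organ, and do not say how much of the muscle around the joint was kept. Sample descriptions give extraction with SDS and urea and 2 rounds of in vitro amplification for ankle RNA, while the protocol field names Trizol for every sample. One ankle of day 0, replicate 2, has a description that opens with a short name other than its title. Replicates are called biological only for blood. For ankles nothing names separate animals, so the p-values cover only the spread among these arrays, and that spread may be technical. In a whole ankle, fewer muscle fibres and less RNA per fibre cannot be told apart.

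A muscle fibre contracts when thick filaments of myosin pull on thin filaments of actin, and calcium released from the sarcoplasmic reticulum switches the thin filament on through troponin and tropomyosin. Fast and slow fibres use different copies of most of these proteins. Fast fibres rely more on glycolysis and hold parvalbumin, a soluble calcium buffer. Denervated or regenerating fibres are known to bring back developmental forms, such as the gamma subunit of the acetylcholine receptor and the embryonic and perinatal myosins. Mouse hindlimb muscle is known to be made up largely of fast fibres.

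Values are log2 intensities after RMA, and a difference is that of 2 group means on the log2 scale ± its standard error from limma. The 95th percentile of 34 negative control probe sets was 6.85, and folds are given only where both group means lay above it. Two-sided p-values received a Benjamini-Hochberg adjustment across the 8251 genes, and 0.05 was the threshold. Array medians lay between 57.7 and 64.1 on the linear scale. Precision is limited by how many arrays a group has.

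Which of these probe sets report muscle was read first from blood, where no fibres are present. For 20 of the 57 genes the mean of the ankle arrays lay at least 1 log2 unit above the mean of the blood arrays. These 20 were Acta1, Actc1, Tnnc2, Tnnt3 and Tpm1 of the thin filament, Myh1, Myl1 and Mylpf of the thick filament, and Actn3, Fhl1, Myom1 and Hspb8 of the Z disc, M band and scaffold. Ryr1, Casq1 and Pvalb of calcium handling and Ckm, Ckmt2, Eno3, Pgam2 and Pfkm of energy supply completed them. For 15 of the 57 genes every one of the 19 ankle arrays lay above every one of the 17 blood arrays. The other 37 genes lay within that margin, which was set on means over all days and on the chosen probe set. Myh4 and Atp2a1 are among the 37, though a second probe set of each lay far above blood, as given below. At day 0 alone 12 of these 37 were called higher in ankle than in blood, with the largest difference, 1.73, for the calcium pump Atp2a1, and 15 had every ankle array above every blood array. The 37 included all 3 myogenic regulators and all 5 acetylcholine receptor subunits, whose ankle means differed from blood by -0.24 to 0.17.

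At day 0, 32 of the 57 genes were higher in ankle than in blood and 0 were lower in the limma fit, against 19.7% of all genes called higher and 17.6% called lower. All day 0 ankle arrays lay above all day 0 blood arrays for 35 of the 57 genes and below them for 0, where 22.9% and 20% of all genes did so. Of the fast fibre genes 10 of 12 were higher, and of the slow fibre genes 2 of 8. Acta1, the skeletal actin that builds the thin filament, had a difference of 7.81 ± 0.34 (adjusted p = 7.81e-08). Myh1, the 2x myosin heavy chain, had a difference of 6.06 ± 0.45 (adjusted p = 3.15e-06), and its 17 blood arrays lay between 2.63 and 3.16. Differences of the 8 slow genes ran from 0.06 to 1.44 with a median of 0.27, against a median of 2.04 in the 12 fast genes. Among the slow genes, Tnni1, slow troponin I, had a difference of 0.16 ± 0.17 (adjusted p = 0.541). Myh7, the slow myosin, had one of 0.21 ± 0.20 (adjusted p = 0.46). Tissue and preparation cannot be told apart in this comparison.

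Synovial fluid cells held little of the muscle signal. Acta1 lay between 4.10 and 4.70 on the 13 fluid arrays, against 4.21 to 5.02 in blood and 9.86 to 12.94 in ankle. Ckm, the muscle creatine kinase that buffers ATP, lay between 4.49 and 5.20 in fluid. Over days 3, 7, 12 and 18, 3 of the 57 genes were higher in fluid than in blood and 30 were lower, where 24.8% of all genes were called higher and 34% lower. The 3 higher genes were Hspb8, a small heat shock protein of the Z disc, with 1.24 ± 0.10 (adjusted p = 5.34e-11), Tpm1, a tropomyosin, with 0.93 ± 0.12 (adjusted p = 2.68e-07), and Pvalb with 0.31 ± 0.10 (adjusted p = 0.012). Hspb8 and Tpm1 are expressed outside muscle as well.

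Through the course of arthritis the median difference of muscle genes from day 0 was negative at each time and nearest 0 at day 18, and few single genes passed the test. The comparisons at days 1, 3, 7, 12 and 18 share the 4 day 0 arrays and are therefore not independent of each other. At day 1 limma called 0 of the 57 genes, with 0% of all genes called. At an unadjusted p under 0.05 there were 5 members, all lower, and 1.82% of all genes. At day 3, 1 of 57 was lower and 0 higher, against 0.0485% of all genes called lower and 0.182% called higher, and 12 members reached an unadjusted p under 0.05, as did 8.62% of all genes. At day 7, 5 of 57 were lower and 0 higher, against 3.64% of all genes lower and 3.09% higher, with 13 members and 18.7% of all genes at an unadjusted p under 0.05. At day 12, 1 of 57 was lower and 0 higher, against 1.37% of all genes lower and 1.87% higher, with 20 members and 15.4% of all genes at an unadjusted p under 0.05. At day 18, 0 of 57 were called, with 3 at an unadjusted p under 0.05, all lower, and 11.8% of all genes. Of all genes 0.885% were called lower and 1.13% higher at that day.

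For days 1, 3, 7, 12 and 18 in turn, the median difference of the 57 genes from day 0 was -0.32, -0.28, -0.35, -0.46 and -0.13. Over all genes tested the median lay between -0.03 and 0.00 at these times. Negative differences were found for 48, 47, 47, 49 and 38 of the 57 genes at days 1, 3, 7, 12 and 18, and for 57.1%, 51.7%, 49.5%, 56.3% and 50.4% of all genes. The 20 genes above the leukocyte margin had medians of -1.002, -1.01, -0.80, -1.16 and -0.40, while the other 37 had medians of -0.11, -0.07, -0.16, -0.21 and -0.04. By fibre type, the medians of the 12 fast genes were -0.78, -0.70, -0.55, -0.89 and -0.04 and those of the 8 slow genes -0.01, -0.03, -0.29, -0.30 and -0.05. No slow gene was among the 20 above the leukocyte margin.

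**Figure D1:**
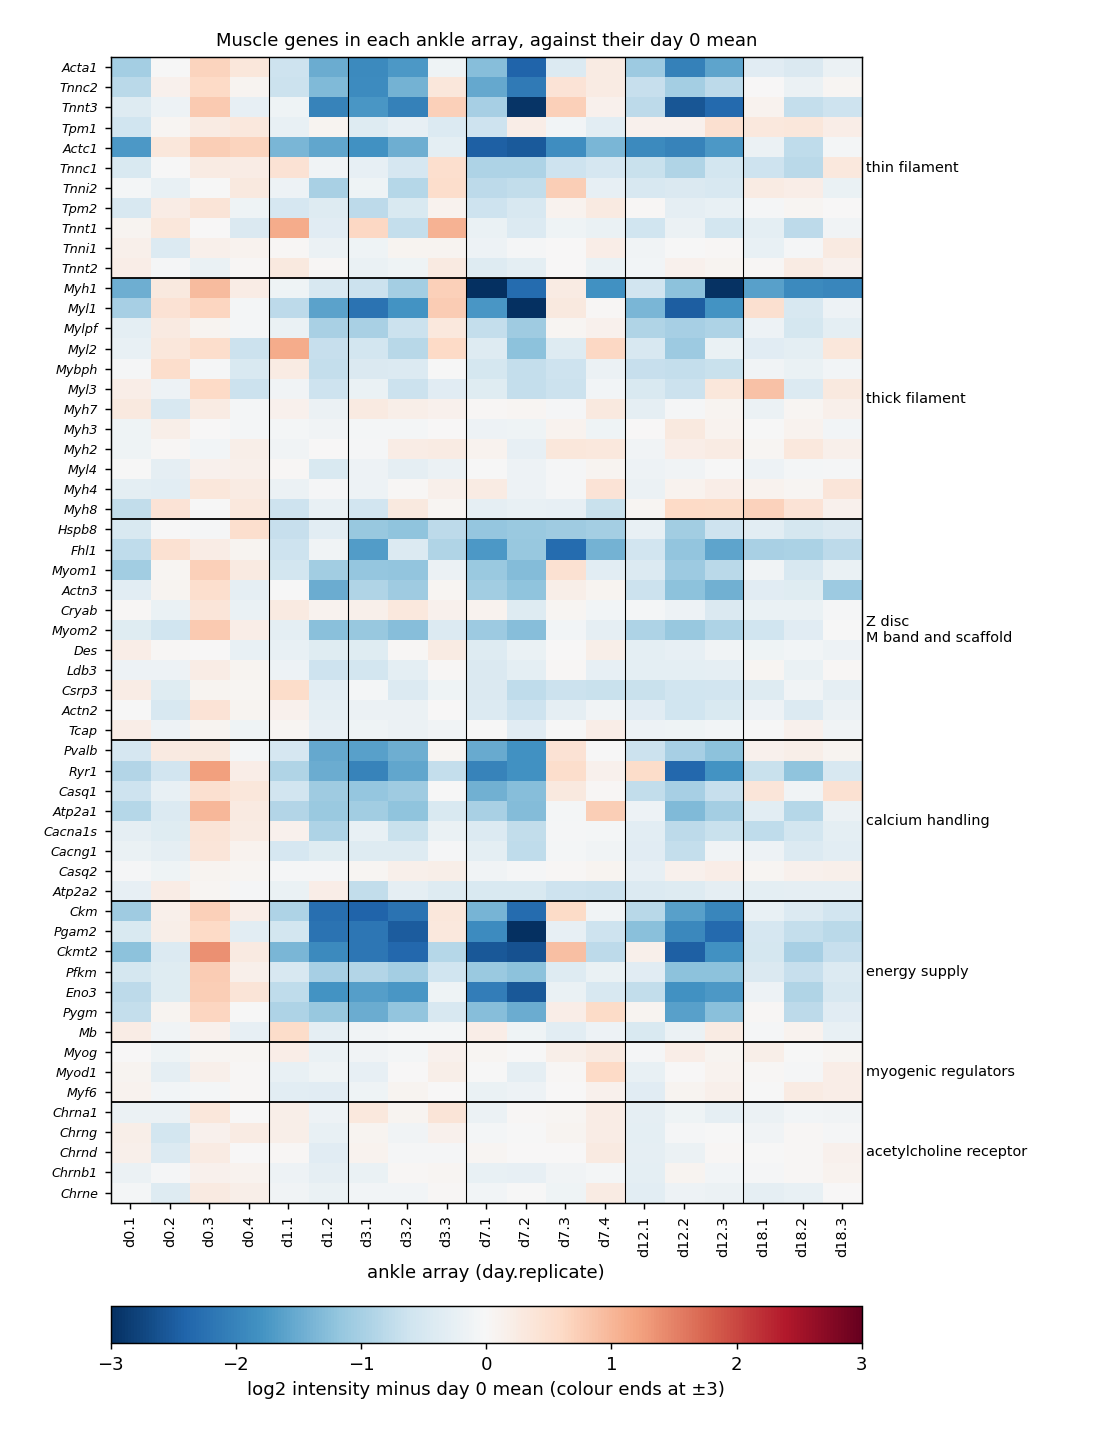
Log2 intensity of 57 muscle genes (rows, by role) on 19 ankle arrays (columns, day and replicate), each minus the gene's day 0 mean; blue is lower and red higher, and the colour ends at a difference of 3. Blue gathers in genes above the leukocyte margin on the arrays of days 1 to 12, unevenly between replicates, and the day 18 arrays are paler.

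Skeletal actin lay below its day 0 arrays at day 12 and among them at day 18, without passing the test. Acta1 lay at 11.25, 12.26, 12.94 and 12.60 on the day 0 arrays, at 11.64 and 10.79 at day 1 and at 10.36, 10.54 and 12.13 at day 3. It then lay at 10.97, 9.86, 11.86 and 12.51 at day 7, 11.18, 10.24 and 10.68 at day 12 and 11.93, 11.82 and 12.08 at day 18. All 3 day 12 arrays were below all 4 day 0 arrays, while day 7 spread across both. The difference from day 0 was -1.25 ± 0.54 at day 3 (adjusted p = 0.531), -0.96 ± 0.50 at day 7 (adjusted p = 0.319), -1.57 ± 0.54 at day 12 (adjusted p = 0.134) and -0.32 ± 0.54 at day 18 (adjusted p = 0.907), and none passed the threshold.

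Actc1, the cardiac actin that developing skeletal muscle also uses, was the thin filament gene that fell. It lay at 8.70, 10.77, 11.16 and 11.09 on the day 0 arrays, at 9.07 and 8.88 at day 1 and at 8.62, 8.96 and 10.14 at day 3. It lay at 7.99, 7.90, 8.58 and 9.07 at day 7, 8.52, 8.42 and 8.70 at day 12 and 10.25, 9.67 and 10.38 at day 18. Day 0 replicate 1 lay far below the other 3 day 0 arrays, and apart from it every day 0 and day 18 array lay above every array of days 7 and 12. Actc1 fell by 2.05 at day 7 (SE 0.44, 4.13-fold lower, adjusted p = 0.00792 in limma) and by 1.88 at day 12 (SE 0.48, 3.69-fold lower, adjusted p = 0.0359). At day 18 the difference was -0.33 ± 0.48 (adjusted p = 0.892). From day 7 to day 18 it was 1.72 ± 0.48 with no overlap of arrays (adjusted p = 0.449). The call at day 12 was lost without day 0 replicate 2, 3 or 4 or any one of the 3 day 12 arrays, with adjusted p between 0.0508 and 0.160, and at day 7 it held without any one array. With the beta-actin ratio described below as a covariate neither day passed, with -1.27 ± 0.44 at day 7 (adjusted p = 0.143) and -0.87 ± 0.51 at day 12 (adjusted p = 0.460).

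This Actc1 probe set is of a kind whose probes can match several members of a gene family, and it gave 7.70 to 8.46 on the blood arrays. The other Actc1 probe set gave 2.81 to 3.28 in blood. In ankle it lay at 4.997, 9.12, 8.34 and 8.40 on the day 0 arrays, at 6.35 and 5.50 at day 1 and at 3.90, 5.62 and 7.87 at day 3. It lay at 3.29, 3.39, 5.39 and 5.14 at day 7, 4.21, 3.38 and 4.57 at day 12 and 7.66, 6.58 and 7.45 at day 18, so that days 7 and 12 again lay below all but the first day 0 array. In a fit of all probe sets the difference was -3.41 ± 0.82 at day 7 (adjusted p = 0.0182), -3.66 ± 0.88 at day 12 (adjusted p = 0.0315) and -0.49 ± 0.88 at day 18 (adjusted p = 0.934). At days 7 and 12 its means, 4.30 and 4.05, lay below 6.85, so these sizes are not read as folds.

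**Figure D2:**
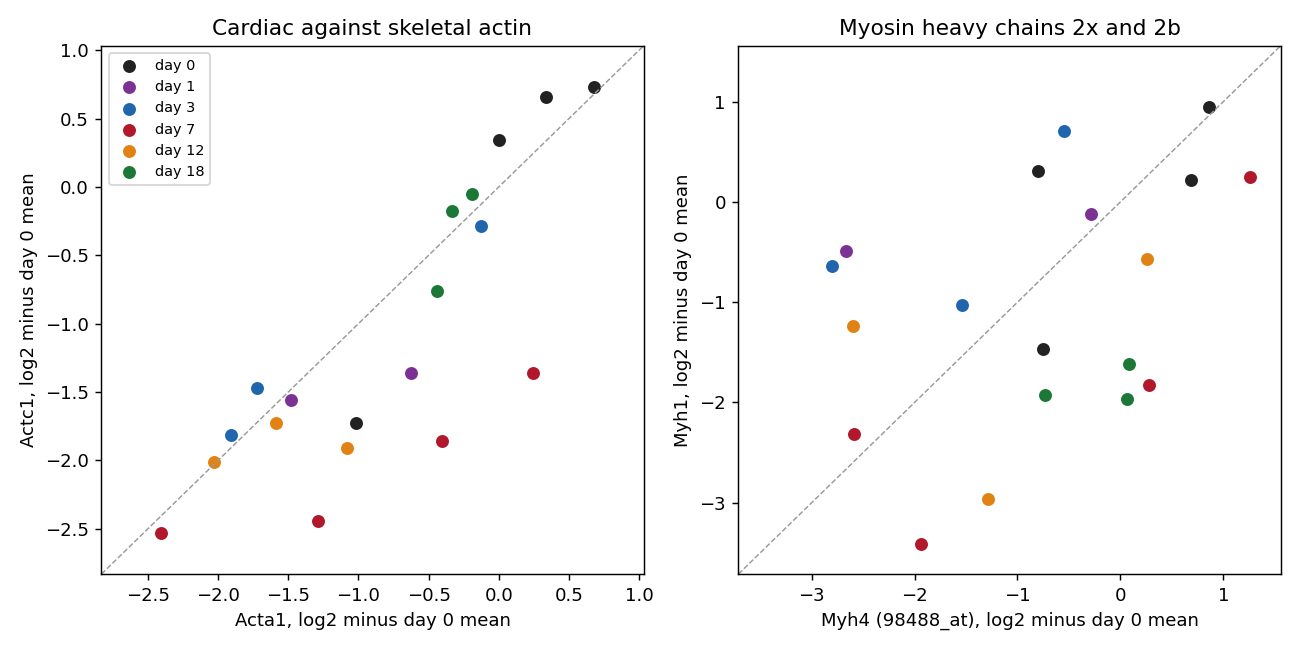
Change from the day 0 mean on the log2 scale in each of the 19 ankle arrays, for Actc1 against Acta1 (left) and for Myh1 against the second probe set of Myh4 (right); points are arrays coloured by day, and the dashed line marks equal change. The day 7 points lie below the line in the left panel and the 3 day 18 points below it in the right panel.

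Promoters of both actins and of the myosins Myh1 and Myh4 are shown because each pair lies side by side in the plot of paired changes. The sequences, from RefSeq on GRCm38.p6, are the 250 bases before the start of the gene. Capitals mark matches to the CArG box, which binds serum response factor, to the MEF2 site and to the E box CANNTG, which binds myogenic regulators.
Acta1: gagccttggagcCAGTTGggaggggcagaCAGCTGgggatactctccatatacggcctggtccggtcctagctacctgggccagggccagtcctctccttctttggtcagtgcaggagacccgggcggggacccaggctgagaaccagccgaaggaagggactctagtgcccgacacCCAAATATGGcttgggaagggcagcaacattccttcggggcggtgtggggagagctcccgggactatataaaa
Actc1: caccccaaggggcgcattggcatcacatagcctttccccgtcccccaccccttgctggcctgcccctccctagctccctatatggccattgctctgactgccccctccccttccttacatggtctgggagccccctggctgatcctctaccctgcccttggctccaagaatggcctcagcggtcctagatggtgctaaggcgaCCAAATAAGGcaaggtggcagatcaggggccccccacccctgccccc
Myh1: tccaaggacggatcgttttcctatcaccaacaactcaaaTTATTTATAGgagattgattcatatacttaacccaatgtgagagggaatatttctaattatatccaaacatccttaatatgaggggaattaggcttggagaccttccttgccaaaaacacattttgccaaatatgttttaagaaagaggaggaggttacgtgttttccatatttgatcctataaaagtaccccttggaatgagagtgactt
Myh4: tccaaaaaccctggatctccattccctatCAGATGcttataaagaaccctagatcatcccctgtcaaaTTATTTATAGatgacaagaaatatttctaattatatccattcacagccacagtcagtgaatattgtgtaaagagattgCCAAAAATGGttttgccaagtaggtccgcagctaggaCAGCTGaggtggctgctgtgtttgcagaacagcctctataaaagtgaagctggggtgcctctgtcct
They lie at chr8:123894776-123895025 (Acta1, minus strand), chr2:114052876-114053125 (Actc1, minus strand), chr11:67199852-67200101 (Myh1, plus strand) and chr11:67237562-67237811 (Myh4, plus strand). Both actin promoters hold 1 CArG box, CCAAATATGG from base 73 to base 64 before the start in Acta1 and CCAAATAAGG from base 47 to base 38 in Actc1. The 2 myosin promoters share the MEF2 site TTATTTATAG, from base 211 to base 202 before the start in Myh1 and from base 182 to base 173 in Myh4. Myh4 has a CArG box too, CCAAAAATGG, and Myh1 and Actc1 have no E box in this window. None of these matches overlaps another. Motifs were searched on both strands in 32851 promoters of the same length. The 48 members with a promoter in the table had 61 promoters and include Ttn and Mybpc2, which the arrays did not measure. A CArG box was held by 7 members (Acta1, Actc1, Fhl1, Ldb3, Myh4, Myl3 and Myom1), in 8 of the 61 promoters, against 1.47% of all promoters. A MEF2 site was found in 7 members (7 of 61 promoters, against 2.92%) and an E box in 42 (52 of 61, against 66.2%). A match describes the letters only.

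Fast troponins gave no call at any day. Tnnt3, fast troponin T, lay at 8.98, 9.21, 10.16 and 9.12 on the day 0 arrays, at 9.23 and 7.37 at day 1 and at 7.62, 7.33 and 10.08 at day 3. It lay at 8.36, 6.43, 10.09 and 9.49 at day 7, 8.58, 6.79 and 7.03 at day 12 and 9.47, 8.65 and 8.74 at day 18. Day 12 lay below day 0 on all 3 arrays, with -1.90 ± 0.76 (adjusted p = 0.22), while the 4 day 7 arrays ranged from below to the level of day 0. Tnnc2, fast troponin C and the calcium sensor of fast fibres, lay at 11.22, 12.16, 12.63 and 12.11 on the day 0 arrays, at 11.39 and 10.70 at day 1 and at 10.14, 10.62 and 12.38 at day 3. It lay at 10.51, 9.92, 12.44 and 12.27 at day 7, 11.34, 11.01 and 11.25 at day 12 and 12.05, 11.86 and 12.09 at day 18, and its difference was -0.83 ± 0.56 at day 12 (adjusted p = 0.536) and -0.03 ± 0.56 at day 18 (adjusted p = 0.992). Of the day 0 arrays only replicate 1 was within the range of day 12. Tnni2, fast troponin I, lay at 5.91, 5.75, 5.97 and 6.27 on the day 0 arrays, at 5.81 and 4.99 at day 1 and at 5.85, 5.11 and 6.49 at day 3. It lay at 5.19, 5.24, 6.70 and 5.72 at day 7, 5.49, 5.55 and 5.50 at day 12 and 6.22, 6.18 and 5.78 at day 18, below 6.85 throughout, with -0.46 ± 0.33 at day 12 (adjusted p = 0.569). Its day 12 arrays lay below those of day 0.

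Slow troponins gave no call in this fit. Tnnc1, the troponin C of slow fibres and heart, lay at 4.88, 5.34, 5.58 and 5.57 on the day 0 arrays, at 5.78 and 5.23 at day 1 and at 5.10, 4.85 and 5.84 at day 3. It lay at 4.42, 4.41, 4.72 and 4.83 at day 7, 4.66, 4.43 and 4.79 at day 12 and 4.71, 4.53 and 5.65 at day 18. The arrays of days 7 and 12 lay below all day 0 arrays at levels under 6.85, with -0.75 ± 0.25 at day 7 (adjusted p = 0.0794) and -0.71 ± 0.26 at day 12 (adjusted p = 0.176). Tnnc1 passed at day 7 without day 0 replicate 1 (-0.90, adjusted p = 0.0418) and with new quantile normalization (-0.79, adjusted p = 0.0499). With all 49 arrays in 1 fit it passed at day 7 (-0.75, adjusted p = 0.00511) and day 12 (-0.71, adjusted p = 0.0232). That fit pools the spread of blood and fluid arrays with that of ankles, so its p-values do not measure spread among ankles alone. Tnni1 lay at 7.32, 6.77, 7.33 and 7.28 on the day 0 arrays, at 7.22 and 7.01 at day 1 and at 7.04, 7.26 and 7.27 at day 3. It lay at 7.02, 7.15, 7.19 and 7.39 at day 7, 7.07, 7.17 and 7.21 at day 12 and 6.95, 7.14 and 7.44 at day 18, within the 6.97 to 7.81 of blood on all but day 0 replicate 2 and day 18 replicate 1. Tnnt1, slow troponin T, had the largest positive difference of the thin filament at day 3, 0.31 ± 0.35 (adjusted p = 0.952), and at day 7 this was -0.23 ± 0.32 (adjusted p = 0.807). Tnnt2, the cardiac troponin T of developing muscle, stayed between 4.14 and 4.83. The tropomyosins Tpm1 and Tpm2, which cover the actin filament, had day 12 differences of 0.24 ± 0.21 (adjusted p = 0.66) and -0.16 ± 0.24 (adjusted p = 0.831).

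In the thick filament 0 of 12 genes passed the test against day 0 at any day, and the largest differences were in the fast genes Myh1 and Myl1. Myh1 lay at 7.43, 9.20, 9.85 and 9.11 on the day 0 arrays, at 8.77 and 8.41 at day 1 and at 8.26, 7.87 and 9.60 at day 3. It lay at 5.49, 6.58, 9.15 and 7.07 at day 7, 8.33, 7.66 and 5.93 at day 12 and 7.28, 6.98 and 6.93 at day 18. All 3 day 18 arrays lay below all day 0 arrays and close together, while days 7 and 12 spread widely. The differences were -1.82 ± 0.66 at day 7 (3.54-fold lower, adjusted p = 0.119), -1.59 ± 0.71 at day 12 (3.01-fold lower, adjusted p = 0.292) and -1.83 ± 0.71 at day 18 (3.56-fold lower, adjusted p = 0.271). Day 18 passed without the albumin arrays described below (-2.32, adjusted p = 0.0464) and with all 49 arrays in 1 fit (-1.83, adjusted p = 0.0242). At day 7 it passed without day 0 replicate 1 (-2.31, adjusted p = 0.0450) or without day 7 replicate 3 (-2.52, adjusted p = 0.0165). With 49 arrays in 1 fit, Myh1 passed at day 7 (-1.82, adjusted p = 0.00635) and day 12 (-1.59, adjusted p = 0.0473) too. The spread in that fit includes blood and fluid arrays as well as ankles.

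Myh4, the 2b myosin of the fastest fibres, is represented by 2 probe sets that disagree. The probe set with the highest mean over all arrays lay at 5.60 to 6.34 in ankle and 5.70 to 6.56 in blood, which leaves no muscle signal to read. On the day 0 ankles it gave 5.64, 5.60, 6.27 and 6.18, and the later ankles lay in a similar narrow span. The second probe set gave 2.62 to 3.00 in blood and is the one plotted against Myh1. In ankle it lay at 10.25, 10.21, 11.87 and 11.69 on the day 0 arrays, at 10.72 and 8.34 at day 1 and at 8.21, 9.47 and 10.46 at day 3. It lay at 9.06, 8.42, 12.26 and 11.29 at day 7, 11.27, 8.40 and 9.72 at day 12 and 11.10, 10.27 and 11.07 at day 18. The day 18 arrays lay inside the day 0 range, at -0.19 ± 0.86 (adjusted p = 0.981), and day 3 and day 12 differed by -1.63 ± 0.86 (adjusted p = 0.746) and -1.21 ± 0.86 (adjusted p = 0.618). Whether Myh1 and Myh4 differ in their change at day 18 was not tested. Adult myosin heavy chains are near-identical paralogs, and the signal of one on probes of another cannot be told apart here.

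The fast light chains gave no call, and their day 12 arrays lay below all day 0 arrays. Myl1, the fast essential light chain, had -1.88 ± 0.76 at day 12 (3.68-fold lower, adjusted p = 0.228) with no overlap of arrays, -1.22 ± 0.71 at day 7 (adjusted p = 0.402) and -0.05 ± 0.76 at day 18 (adjusted p = 0.992). Mylpf, the fast regulatory light chain, lay at 7.56, 8.12, 7.92 and 7.80 on the day 0 arrays, at 7.64 and 6.87 at day 1 and at 6.88, 7.2 and 8.15 at day 3. It lay at 7.14, 6.77, 7.90 and 7.97 at day 7, 6.94, 6.84 and 6.92 at day 12 and 7.69, 7.33 and 7.55 at day 18. Its day 12 arrays lay below all day 0 arrays, with -0.95 ± 0.30 (1.93-fold lower, adjusted p = 0.0976), and its day 18 arrays reached into the day 0 range. Mybph, a myosin-binding protein, was under 6.85 and had -0.70 ± 0.22 at day 12 (adjusted p = 0.0942), also with no overlap.

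Slow and developmental myosins stayed near the leukocyte level. Myh7 lay at 6.41, 5.64, 6.36 and 6.06 on the day 0 arrays, at 6.26 and 5.95 at day 1 and at 6.40, 6.29 and 6.26 at day 3. It lay at 6.14, 6.18, 6.09 and 6.42 at day 7, 5.84, 6.07 and 6.21 at day 12 and 5.93, 6.18 and 6.28 at day 18, against 5.77 to 6.62 in blood. Myl2, the slow regulatory light chain, lay at 5.21, 5.78, 5.97 and 4.80 on the day 0 arrays, at 6.56 and 4.76 at day 1 and at 4.89, 4.61 and 6.03 at day 3. It lay at 5.05, 4.22, 5.06 and 6.06 at day 7, 4.95, 4.35 and 5.25 at day 12 and 5.09, 5.15 and 5.77 at day 18, with 1 or 2 arrays a day above the 4.27 to 5.38 of blood at days 0, 1, 3, 7 and 18. The day 7 difference was -0.34 ± 0.42 (adjusted p = 0.77). The embryonic myosin Myh3 lay between 2.96 and 3.40 and the perinatal myosin Myh8 between 3.06 and 4.49, both within or below the range of blood, so that a return of these forms was not detectable. Myh8 had the largest positive difference of the thick filament at days 12 and 18, 0.41 ± 0.25 (adjusted p = 0.488) and 0.41 ± 0.25 (adjusted p = 0.596).

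**Figure D3:**
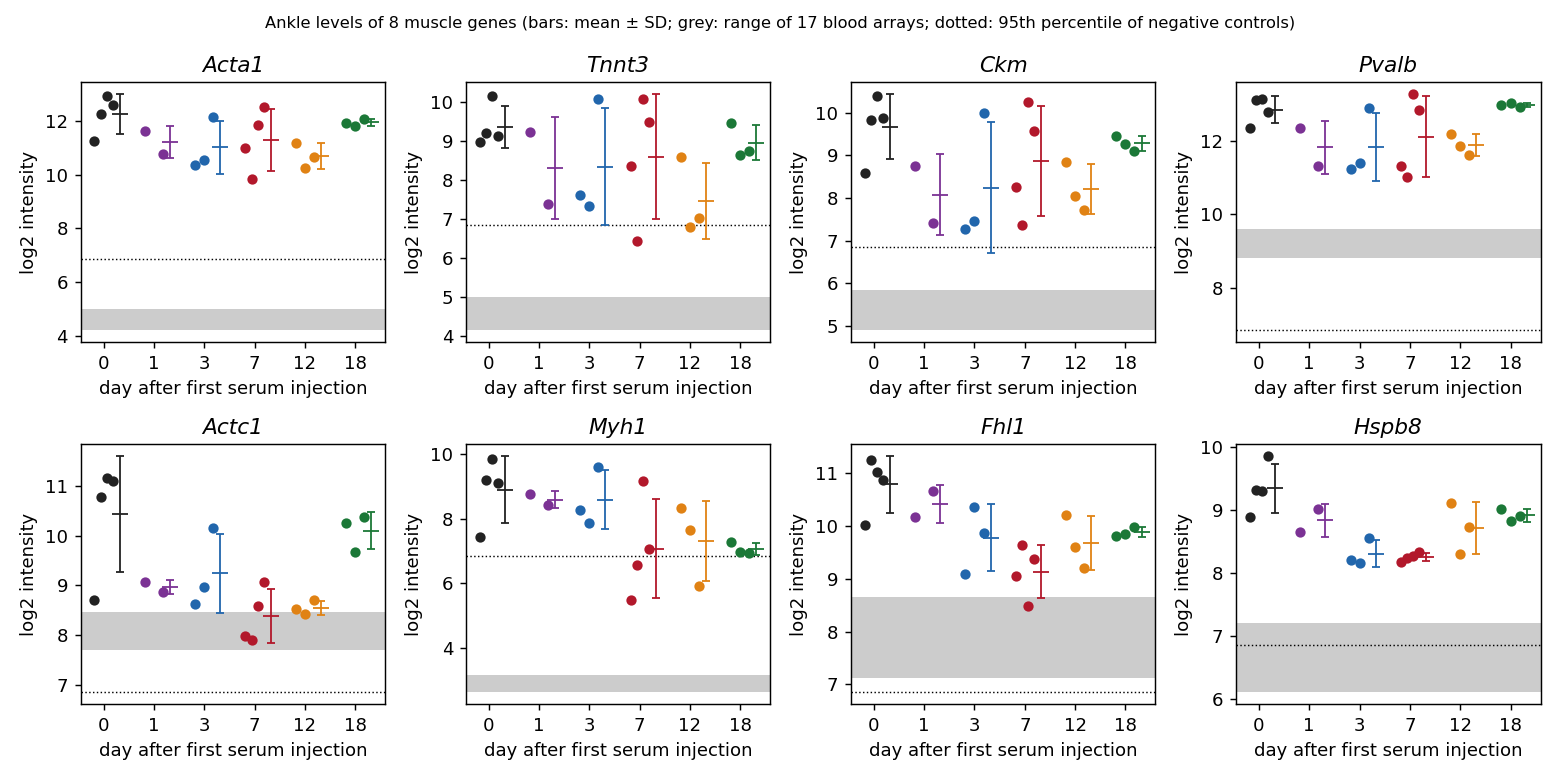
Log2 intensity of 8 muscle genes on each ankle array by day after the first serum injection; points are arrays, bars are mean ± SD, the grey band is the range of 17 blood arrays and the dotted line the 95th percentile of negative controls, 6.85. For Actc1 2 of the 4 day 7 arrays lie inside the blood band and all 3 day 18 arrays above it, while Myh1 lies between 6.93 and 7.28 at day 18.

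Among genes of the Z disc, M band and scaffold, 3 of 11 fell at day 7 and 1 of 11 at day 3, where 3.64% and 0.0485% of all genes were called lower. Fhl1, a LIM domain protein of the sarcomere, lay at 10.01, 11.24, 11.01 and 10.86 on the day 0 arrays, at 10.16 and 10.66 at day 1 and at 9.09, 10.36 and 9.87 at day 3. It lay at 9.06, 9.63, 8.48 and 9.36 at day 7, 10.21, 9.59 and 9.20 at day 12 and 9.81, 9.84 and 9.98 at day 18. At day 7 all 4 arrays lay below all day 0 arrays and it fell by 1.65 (SE 0.31, 3.13-fold lower, adjusted p = 0.00287). Fhl1 differed by -1.01 ± 0.34 at day 3 (adjusted p = 0.328), -1.11 ± 0.34 at day 12 (adjusted p = 0.0838) and -0.90 ± 0.34 at day 18, where arrays did not overlap (adjusted p = 0.243). Blood reached 8.65 and fluid 8.92 for this probe set. The other 2 Fhl1 probe sets, at day 0 means of 3.50 and 6.23, showed differences of -0.01 and 0.00 at day 7.

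Hspb8, which with its partners clears damaged filament proteins, lay at 8.90, 9.32, 9.31 and 9.86 on the day 0 arrays, at 8.65 and 9.02 at day 1 and at 8.21, 8.15 and 8.55 at day 3. It lay at 8.18, 8.23, 8.28 and 8.34 at day 7, 9.12, 8.30 and 8.73 at day 12 and 9.02, 8.82 and 8.91 at day 18. Days 3 and 7 lay below every day 0 array, and 1 array of day 12 and 2 arrays of day 18 reached the day 0 range. Hspb8 fell by 1.04 at day 3 (SE 0.21, 2.06-fold lower, adjusted p = 0.0446) and by 1.09 at day 7 (SE 0.19, 2.13-fold lower, adjusted p = 0.00172). With the replicate number as a block the day 3 difference was -0.94 ± 0.20 (adjusted p = 0.0541). The day 3 call was lost without day 0 replicate 3 or 4 or any one of the 3 day 3 arrays, with adjusted p between 0.0703 and 0.189, and the day 7 call held without any one array. Fluid cells gave 6.98 to 8.31 and blood 6.10 to 7.2. A second Hspb8 probe set, at a day 0 mean of 5.64, differed by -0.29 ± 0.16 at day 7 (adjusted p = 0.439).

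Csrp3, the muscle LIM protein of the Z disc, fell at levels below 6.85. It gave 5.58, 4.97, 5.44 and 5.40 at day 0 and 4.90, 4.59, 4.71 and 4.68 at day 7, a fall of 0.62 (SE 0.16, adjusted p = 0.0252), and 4.67, 4.76 and 4.77 at day 12, with -0.61 ± 0.18 (adjusted p = 0.0664). No array of either day reached the lowest day 0 array. The day 7 call was lost without day 0 replicate 1, 3 or 4 or day 7 replicate 2, 3 or 4, with adjusted p between 0.0640 and 0.0766, and without the 3 albumin arrays described below (-0.61, adjusted p = 0.0625). Des, the desmin filament that ties Z discs together, lay at 7.17, 7.00, 6.98 and 6.75 on the day 0 arrays, at 6.75 and 6.61 at day 1 and at 6.60, 7.01 and 7.22 at day 3. It lay at 6.58, 6.78, 7.00 and 7.15 at day 7, 6.69, 6.72 and 6.86 at day 12 and 6.85, 6.90 and 6.83 at day 18, and its differences lay between -0.30 and -0.03, with adjusted p at or above 0.577. Actn3, the alpha-actinin of fast fibres, had -1.11 ± 0.40 at day 12 (2.15-fold lower, adjusted p = 0.16) and -0.60 ± 0.40 at day 18 (adjusted p = 0.641), both with no overlap. Myom2, an M band protein, had -1.002 ± 0.34 (adjusted p = 0.128) and Ldb3, a Z disc adaptor, -0.29 ± 0.16 (adjusted p = 0.43) at day 12, also with no overlap. Cryab, a small heat shock protein that binds desmin, and Tcap, the titin cap, had differences from day 0 between -0.21 and 0.21 at each day.

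Calcium handling genes gave 1 call, at day 7, where 3.64% of all genes were called lower. Atp2a2, the slow and cardiac calcium pump that is also present in most other cells, lay at 6.12, 6.57, 6.42 and 6.33 on the day 0 arrays, at 6.16 and 6.56 at day 1 and at 5.63, 6.09 and 5.98 at day 3. It lay at 5.91, 5.91, 5.73 and 5.72 at day 7, 5.96, 5.98 and 6.09 at day 12 and 6.06, 6.09 and 6.09 at day 18. Days 3, 7, 12 and 18 each lay below all day 0 arrays. Atp2a2 fell by 0.54 at day 7 (SE 0.13, adjusted p = 0.0137), at a level under 6.85 where blood gave 5.84 to 6.49 and fluid 5.81 to 6.43. The differences were -0.46 ± 0.14 at day 3 (adjusted p = 0.246), -0.35 ± 0.14 at day 12 (adjusted p = 0.213) and -0.28 ± 0.14 at day 18 (adjusted p = 0.447). As leukocytes gave a similar level, this probe set cannot be read as muscle alone.

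Pvalb, the parvalbumin of fast fibres, lay at 12.34, 13.10, 13.14 and 12.79 on the day 0 arrays, at 12.34 and 11.31 at day 1 and at 11.22, 11.39 and 12.90 at day 3. It lay at 11.32, 11.02, 13.27 and 12.83 at day 7, 12.19, 11.85 and 11.61 at day 12 and 12.98, 13.02 and 12.92 at day 18. Days 1 and 12 lay at or below the lowest day 0 array and the 3 day 18 arrays lay inside the day 0 range, with -0.96 ± 0.48 at day 12 (1.94-fold lower, adjusted p = 0.359) and 0.13 ± 0.48 at day 18 (adjusted p = 0.966). Atp2a1, the fast calcium pump, lay at 7.63, 8.06, 9.48 and 8.75 on the day 0 arrays, at 7.60 and 7.37 at day 1 and at 7.44, 7.27 and 8.02 at day 3. It lay at 7.50, 7.18, 8.42 and 9.22 at day 7, 8.33, 7.15 and 7.46 at day 12 and 8.15, 7.62 and 8.30 at day 18, against 6.72 to 7.25 in blood, and its day 1 difference of -0.99 ± 0.51 had no overlap of arrays (adjusted p = 0.999). Its second probe set ran from 8.93 to 12.098 in ankle and reached 5.40 in blood, and differed by -0.55 ± 0.59 at day 7 (adjusted p = 0.743) and 0.20 ± 0.63 at day 18 (adjusted p = 0.970). Ryr1, the calcium release channel, had the most negative difference of this role at each day, -1.21 ± 0.77, -1.43 ± 0.68, -0.79 ± 0.63, -1.20 ± 0.68 and -0.78 ± 0.68 in turn (adjusted p at or above 0.439). Casq1, the calcium store protein of fast fibres, had -0.81 ± 0.39 at day 12 with no overlap (adjusted p = 0.334) and 0.23 ± 0.39 at day 18 (adjusted p = 0.907), and Cacng1, a calcium channel subunit, -0.43 ± 0.22 at day 1 with no overlap (adjusted p = 0.999).

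Energy supply genes had medians of -1.28, -1.17, -0.81, -1.37 and -0.51 at days 1, 3, 7, 12 and 18, and 0 of 7 passed the test. Of these genes 5 of 7 lay above the leukocyte margin, against 5 of 11 in the thin filament, 3 of 12 in the thick filament, 4 of 11 in the Z disc, M band and scaffold and 3 of 8 in calcium handling. Ckm lay at 8.59, 9.83, 10.39 and 9.87 on the day 0 arrays, at 8.76 and 7.41 at day 1 and at 7.27, 7.45 and 10.002 at day 3. It lay at 8.27, 7.36, 10.25 and 9.57 at day 7, 8.85, 8.05 and 7.72 at day 12 and 9.46, 9.27 and 9.10 at day 18. Day 3 replicate 3 and day 7 replicates 3 and 4 were within the day 0 range, the other arrays of these days were below it, and the difference was -1.47 ± 0.66 at day 12 (2.77-fold lower, adjusted p = 0.298) and -0.39 ± 0.66 at day 18 (adjusted p = 0.907). Pgam2, the muscle phosphoglycerate mutase of glycolysis, had -1.38 ± 0.76 at day 1 (adjusted p = 0.999), -1.52 ± 0.62 at day 7 (adjusted p = 0.177), -1.84 ± 0.67 at day 12 (adjusted p = 0.163) and -0.68 ± 0.67 at day 18 (adjusted p = 0.801), with no overlap of arrays at days 1, 12 and 18. Ckmt2, the mitochondrial creatine kinase, had -1.64 ± 0.86 at day 1 (adjusted p = 0.999) and -1.79 ± 0.76 at day 3 (adjusted p = 0.527). Pygm, the glycogen phosphorylase of muscle, had -1.04 ± 0.54 at day 1 with no overlap (adjusted p = 0.999), and Pfkm, phosphofructokinase, -0.83 ± 0.31 at day 3 with no overlap (adjusted p = 0.432). Mb, the oxygen store myoglobin, lay at 4.47, 4.13, 4.37 and 4.01 on the day 0 arrays, at 4.80 and 3.98 at day 1 and at 4.15, 4.20 and 4.19 at day 3. It lay at 4.44, 4.11, 3.92 and 4.09 at day 7, 3.80, 4.08 and 4.49 at day 12 and 4.21, 4.35 and 4.03 at day 18, against 4.16 to 4.80 in blood, with no call between ankle and blood at day 0 (-0.11 ± 0.16, adjusted p = 0.637).

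Regulators and receptor subunits were near leukocyte level. At day 0, 1 of the 5 receptor subunits had every ankle array above every blood array, and 0 were called. Their differences from blood at day 0 reached 0.35. Myog, myogenin, which drives differentiation and rises in denervated muscle, lay at 7.75, 7.62, 7.81 and 7.80 on the day 0 arrays, at 7.94 and 7.55 at day 1 and at 7.63, 7.68 and 7.89 at day 3. It lay at 7.81, 7.74, 7.93 and 8.01 at day 7, 7.71, 7.94 and 7.83 at day 12 and 7.91, 7.73 and 7.81 at day 18, against 7.53 to 8.01 in blood. Chrna1, the alpha subunit of the receptor, lay at 3.53, 3.53, 4.04 and 3.72 on the day 0 arrays, at 3.88 and 3.56 at day 1 and at 4.03, 3.79 and 4.09 at day 3. It lay at 3.52, 3.75, 3.76 and 3.92 at day 7, 3.44, 3.57 and 3.44 at day 12 and 3.52, 3.62 and 3.59 at day 18, with a largest difference of 0.26 ± 0.13 at day 3 (adjusted p = 0.609). Chrng, the fetal gamma subunit, lay at 6.23, 5.52, 6.18 and 6.31 on the day 0 arrays, at 6.24 and 5.83 at day 1 and at 6.15, 5.96 and 6.18 at day 3. It lay at 6.00, 6.04, 6.15 and 6.29 at day 7, 5.77, 6.02 and 6.04 at day 12 and 5.96, 6.09 and 6.02 at day 18, against 5.78 to 6.54 in blood. Chrng lay within blood on all but day 0 replicate 2 and day 12 replicate 1, and Chrna1 lay above the highest blood array, 3.87, on 5 of 19 arrays. Myf6, a regulator kept in adult fibres, had -0.32 ± 0.14 at day 1 with no overlap at levels under 6.85 (adjusted p = 0.999). Differences from day 0 over these 8 genes lay between -0.32 and 0.26, and a denervation response was not detectable with these probe sets.

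**Figure D4:**
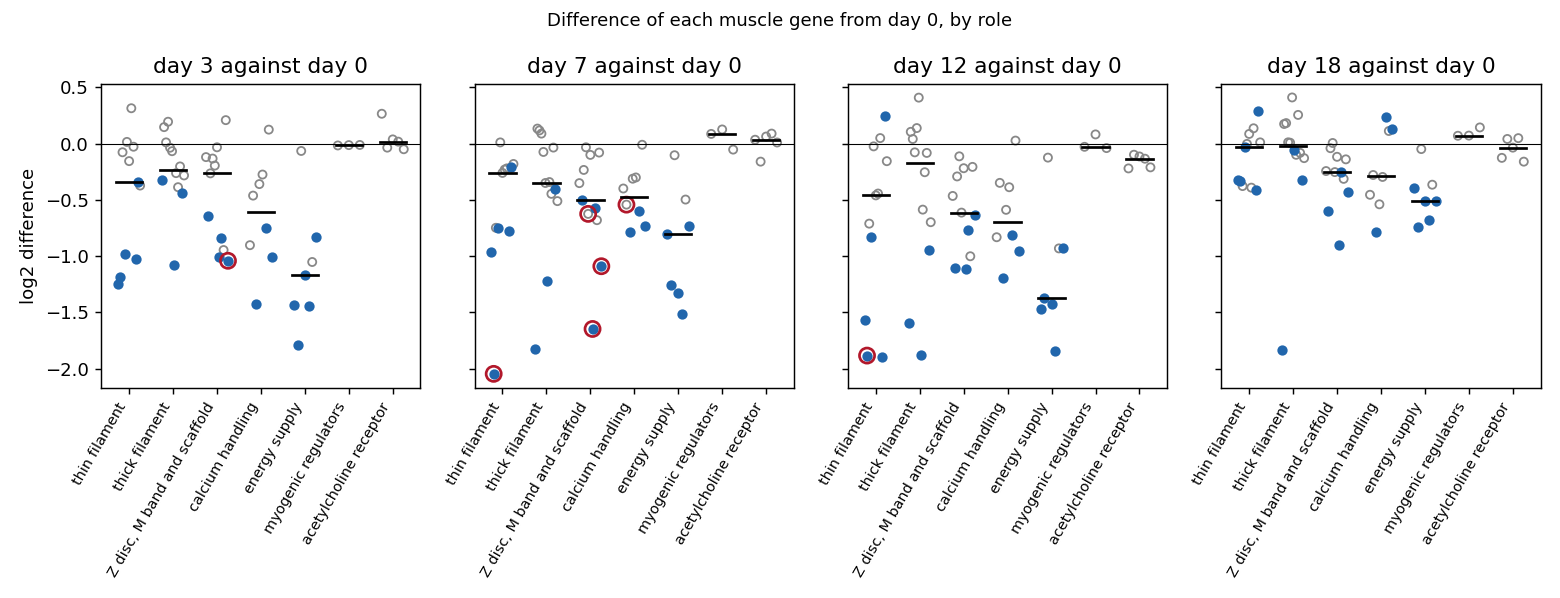
Log2 difference from day 0 of each of 57 muscle genes by role at days 3, 7, 12 and 18; filled points are the 20 genes above the leukocyte margin, open points the other 37, red rings the genes called by limma and black lines the medians. Medians of energy supply lie at -1.17, -0.81, -1.37 and -0.51, while myogenic regulators and receptor subunits stay near 0.

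Separation of arrays was counted beside the test. All arrays of a day lay below all day 0 arrays for 9, 3, 5, 16 and 5 of the 57 genes, taking days 1, 3, 7, 12 and 18 in turn, where 3.58%, 4.06%, 5.93%, 6.21% and 8.56% of all genes did so. The share at day 18 was close to that of all genes. No member lay above day 0 on every array at any of these days, where 2.08%, 2.82%, 4.01%, 4.58% and 6.16% of all genes did. The 16 of day 12 included 7 of the 12 fast genes and 2 of the 8 slow genes, Tnnc1 and Atp2a2.

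From day 7 to day 18 limma called 0 of the 57 genes, where 0.0606% of all genes were called higher, and 9 members were higher at an unadjusted p under 0.05 against 5.28% of all genes either way. The median difference was 0.19 over the 57 genes and 0.58 over the 20 above the leukocyte margin, with 0.00 over all genes. All day 18 arrays lay above all day 7 arrays for 9 members, where 4.19% of all genes did, and below them for 0, where 3.27% did. They were Actc1, given above, Hspb8 with 0.66 ± 0.21 (adjusted p = 0.582), Fhl1 with 0.74 ± 0.34 (adjusted p = 0.912) and Tpm1 with 0.49 ± 0.21 (adjusted p = 0.855). At levels under 6.85 they were Myh8 with 0.76 ± 0.25, Tnnt2 with 0.36 ± 0.14, Csrp3 with 0.37 ± 0.18, Atp2a2 with 0.26 ± 0.14 and Chrnb1, a receptor subunit, with 0.20 ± 0.12 (adjusted p from 0.655 to 0.999). Myh1 differed by -0.01 ± 0.71 from day 7 to day 18 (adjusted p = 1).

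Arrays of the same day differed in the brightness of muscle genes. The comparisons were repeated with the mean of Acta1, Ckm, Mylpf and Tnnt3 on each array as a covariate, with these 4 genes left out of the count. That mean lay between 9.10 and 10.35 at day 0, 7.61 and 10.03 at day 7 and 7.98 and 8.89 at day 12. As it was itself lower at day 12, the covariate takes up part of any day difference that muscle genes share. Calls lost with it therefore do not separate a difference between days from uneven muscle content of arrays. At day 7, 5 of the other 53 genes were called lower, where 7.15% of all genes were called. Actc1 differed by -1.60 ± 0.35 (adjusted p = 0.00958), Fhl1 by -1.65 ± 0.34 (adjusted p = 0.00595), Hspb8 by -0.99 ± 0.20 (adjusted p = 0.00509), Atp2a2 by -0.56 ± 0.14 (adjusted p = 0.0191) and Pgam2 by -0.63 ± 0.18 (adjusted p = 0.0424). Csrp3 then differed by -0.58 ± 0.17 (adjusted p = 0.0538). At day 12, 0 of 53 were called, where 2.17% of all genes were, and Actc1 differed by -0.98 ± 0.43 (adjusted p = 0.285). Myh1 at day 18 differed by -1.50 ± 0.53 (adjusted p = 0.197).

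**Figure D5:**
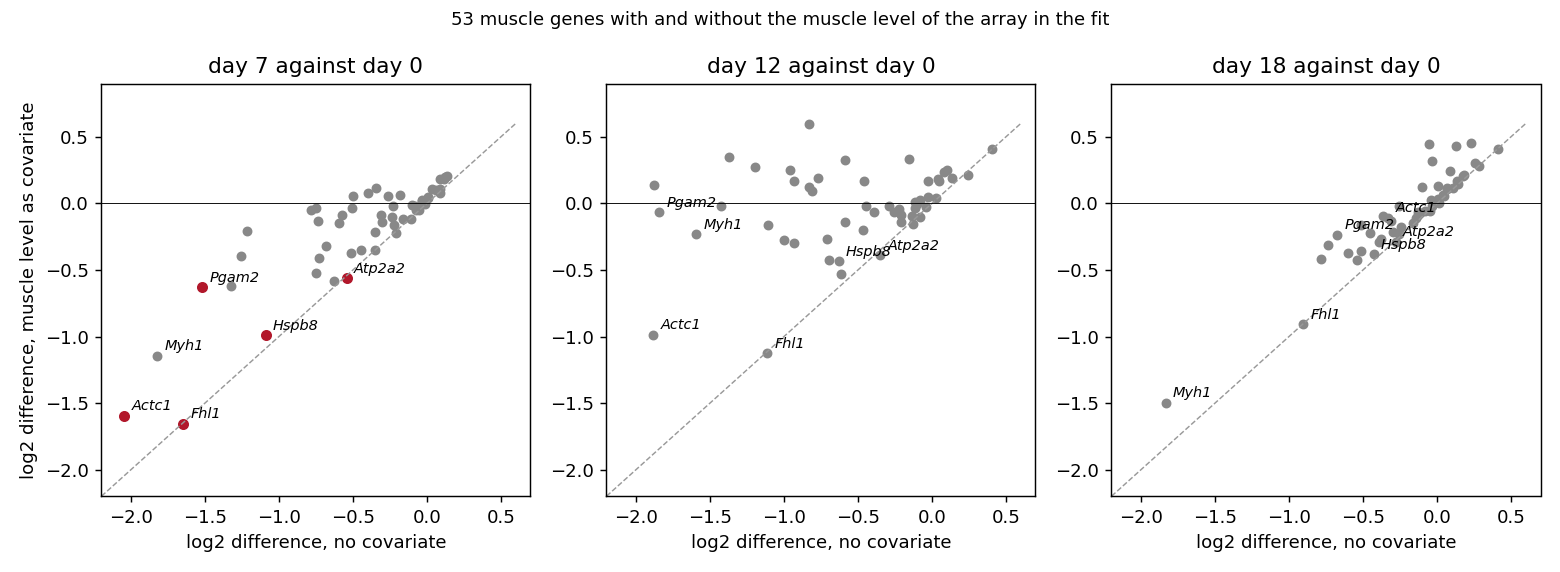
Log2 difference from day 0 of 53 muscle genes without a covariate (horizontal) and with the mean of Acta1, Ckm, Mylpf and Tnnt3 on each array as a covariate (vertical), at days 7, 12 and 18; red points are called with the covariate and the dashed line marks equal values. At day 7 Fhl1, Hspb8 and Atp2a2 lie near the line, and at day 12 most genes move toward 0.

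Array quality was read from a beta-actin ratio, which tended to run higher after day 0, and from albumin, which stood out on single arrays. The log2 ratio of the 3 prime to the 5 prime control probe set of beta-actin, which rises as RNA shortens, was 2.73 to 3.50 on the day 0 arrays and 3.15 to 4.25 on later ones. With this ratio as a covariate 2 of 57 genes were called at day 7, where 3.03% of all genes were: Hspb8 (-0.67 ± 0.15, adjusted p = 0.0243) and Csrp3 (-0.80 ± 0.19, adjusted p = 0.0265). Beside the Actc1 values given above, Fhl1 then differed by -1.34 ± 0.36 (adjusted p = 0.0570) and Atp2a2 by -0.45 ± 0.15 (adjusted p = 0.143). At day 12, 0 of 57 were called with the ratio, where 1.15% of all genes were. Albumin, a liver transcript, was well above 6.85 on day 0 replicate 1 (8.95), day 7 replicate 1 (8.41) and day 12 replicate 1 (10.65). Without these 3 arrays Actc1 fell by 2.49 at day 7 (adjusted p = 0.000444) and by 2.45 at day 12 (adjusted p = 0.00236), and passed at day 3 with -1.77 (adjusted p = 0.0331). At day 7, 4 of 57 genes were then called, where 7.09% of all genes were. At day 12, 7 of 57 genes were then called, where 4.44% of all genes were, all 7 lower: Actc1, Myh1 (-2.59, adjusted p = 0.0332), Fhl1 (-1.64, adjusted p = 0.0142), Hspb8 (-0.98, adjusted p = 0.0142), Ryr1 (-2.36, adjusted p = 0.0353), Pygm (-1.68, adjusted p = 0.0468) and Pfkm (-1.41, adjusted p = 0.0172). Day 0 replicate 1 also had the lowest mean of Acta1, Ckm, Mylpf and Tnnt3 at day 0, 9.10 against 9.85 to 10.35. Day 12 replicate 1 had the highest of its day, 8.89 against 7.98 and 8.08. Leaving both out widens the gap between these days, so the larger falls cannot be told apart from uneven muscle content of arrays. The summed intensity of 8 hepatocyte markers ran from 1179 to 3158 at day 0 and from 533 to 7508 at day 12.

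Markers of other cells of the ankle moved at the same times. Of all genes 0.182%, 3.09%, 1.87% and 1.13% were called higher at days 3, 7, 12 and 18. The shares called lower were 0.0485%, 3.64%, 1.37% and 0.885%. Of 8 neutrophil markers 4 rose at days 7, 12 and 18 (S100a8, S100a9, Mmp9 and Clec4d), and their summed intensity went from 490 to 571 at day 0 to between 2484 and 4297 at day 7. Of 8 macrophage markers 1 rose at days 3, 7, 12 and 18, the scavenger receptor Msr1, with sums of 2728 to 3509 at day 0 and 2163 to 4097 at day 7. Of 8 smooth muscle markers 2 fell at days 7 and 18, Myh11, the smooth muscle myosin, by 1.44 at day 7 (SE 0.25, adjusted p = 0.00161) and Tagln by 0.84 (SE 0.16, adjusted p = 0.00349), with summed intensities of 2922 to 4238 at day 0 and 2633 to 3584 at day 7. The Schwann cell marker S100b fell at days 7, 12 and 18 (1 of 4 markers, 1538 to 3254 at day 0 and 1385 to 2530 at day 7 in sum), as did the adipocyte markers Lipe and Retn (2 of 4, 1381 to 2577 and 637 to 2045). Fmod, a tendon and cartilage matrix gene, fell by 1.84 at day 7 (SE 0.29, adjusted p = 0.000764, 1 of 2 tendon markers, 1638 to 2443 and 610 to 1117). Of 7 heart, 8 hepatocyte and 6 epidermis markers 0 were called. The part of these cells, of RNA length and of albumin in the muscle result was not tested beyond the values given.

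Other muscle genes, from lists chosen with earlier results known, changed in few cases. Of all genes 3.64%, 1.37% and 0.885% were called lower at days 7, 12 and 18. The shares called higher were 3.09%, 1.87% and 1.13%. Single calls in lists this short are therefore not read as results about the lists. Of 24 other striated muscle genes measured, 1 fell at days 7, 12 and 18 and 0 rose: Gpd1, a glycerol phosphate dehydrogenase that fat cells also use, with -0.56 ± 0.12 at day 7 (adjusted p = 0.00885) and -0.57 ± 0.13 at day 18 (adjusted p = 0.0305). Their median difference was -0.19 at day 7 and -0.27 at day 12. Of 11 genes of atrophy, denervation and the neuromuscular junction, 1 rose: Ncam1, an adhesion molecule of nerve and denervated fibres, with 0.78 ± 0.15 at day 7 (adjusted p = 0.00318) and 0.75 ± 0.16 at day 18 (adjusted p = 0.0192). Ncam1 was also higher in fluid cells than in blood, by 0.80 ± 0.09 (adjusted p = 2.73e-08), and fibres and fluid cells as its source in the ankle cannot be told apart. Of 11 genes of satellite cells and regeneration, 1 rose: Mest, an imprinted gene of growing tissue, with 1.13 ± 0.27 at day 7 (adjusted p = 0.0163) and 1.17 ± 0.30 at day 12 (adjusted p = 0.0347), at levels under 6.85. Medians of the latter lists were -0.06 and -0.02 at day 7.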

How the data were processed

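The table holds intensities on a linear scale that the authors made by RMA, per the submitters' processing notes. The RMA version: not given in the sources used here. The 12488 probe sets gave 10833 with 1 gene symbol, 396 with several and 1259 with none or belonging to controls, through the platform annotation. The highest mean over 49 arrays chose 1 probe set for each of 8251 genes. A limma model (version 3.58.1, R 4.3.3, trended eBayes after lmFit) of the log2 values had 1 mean per day over the 19 ankle arrays. Ankle against blood used the 7 arrays of day 0, and fluid against blood the mean of 4 day-matched differences. Procedures were tested on simulated data. Members, lists and tests were chosen with earlier results of these data known. Named genes followed a rule: fixed genes of each role, every gene past the threshold, every gene whose arrays did not overlap, and the largest difference of a role. Same-numbered arrays of days 3 and 0 deviated together (r across genes 0.54, 0.49 and 0.20). The labels state no pairing, so this is a hint from the data only, and the main fit used no pairing. Motifs were searched in RefSeq promoters of GRCm38.p6.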

Additional observations from a re-analysis of the deposited data

Results flagged for a closer look

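In groups of 4 arrays, an array was singled out when its gap to the nearest other array took up most of the range of the group (Dixon's test at 95%). Of 82 groups over 41 genes, 4 held such an array, and chance gives about 1 in 20. Actc1 on ankle day 0 replicate 1 was 8.70, below 10.77 to 11.16 on the other 3 arrays, and that array also held albumin transcripts at 8.95. Tnni1 on ankle day 0 replicate 2 was 6.77, below 7.28 to 7.33. Chrng on the same array was 5.52, below 6.18 to 6.31. Myh8 on ankle day 7 replicate 4 was 3.12, below 3.52 to 3.58. Tnni1, Chrng and Myh8 are at the level of leukocytes.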

How the results depend on the processing

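Settings changed the number of muscle genes called against day 0. Of 2917 values of single genes under alternatives, 2844 kept their side of the threshold, 32 lost the call and 40 gained it. For 1 value a gene called in the main fit changed sign: Fhl1 at day 7 on another probe set, 0.0034 (adjusted p = 0.995). Among values never called, differences near 0 could change sign and are not counted as changes. At day 3 the count of 1 became 0 with median centring or mean probe sets. It was also 0 with the beta-actin ratio (0.0727% of all genes called) or the muscle level (0.133%) as covariate. It became 2 without albumin arrays (0.485% of all genes called). At day 7 the count of 5 became 11 with all 49 arrays in 1 fit (8.65% of all genes called) and 2 with the beta-actin ratio (3.03%). The fit of 49 arrays pools the spread of blood and fluid arrays with that of ankles, so its counts do not rest on ankle spread alone. At day 12 the count of 1 became 3 with new quantile normalization, 16 with 49 arrays (5.55%) and 7 without albumin arrays (4.44%). It became 0 with the beta-actin ratio (1.15%) or the muscle level (2.17%). At day 18 the count of 0 became 1 with 49 arrays (3.58%) and 1 without albumin arrays (2.21%). From day 7 to day 18 it became 1 with 49 arrays (0.364%). Fluid against blood went from 33 (58.8%) to 18 without the genes of lowest signal, where fewer genes were tested, and to 21 with 49 arrays (57.6%). With the replicate block the counts were 0 at day 3 (0.255% of all genes), 8 at day 7 (11.1%) and 4 at day 12 (6.06%). From day 7 to day 18 the count with the block was 1 (0.17%). Slow Tnnc1 passed with the block at day 7 (-0.75, adjusted p = 0.00598) and day 12 (-0.63, adjusted p = 0.0473). Leaving out each array in turn gave 0 to 2 at day 3, 4 to 6 at day 7, 0 to 3 at day 12, 27 to 38 for ankle against blood and 29 to 37 for fluid against blood. Where no share of all genes stands beside a count, a change in muscle genes and a change in all genes cannot be told apart. This holds for leaving out arrays, median centring, mean probe sets, new quantile normalization and the genes of lowest signal. Causes were not tested. For days 3 and 7 against day 0, 6 of 6 and 5 of 8 arrays correlated best with their own number. For days 12 and 18 this was 6 of 6 and 3 of 6. Same-numbered correlations with day 0 were 0.71 and 0.73 at day 1 and 0.61, 0.58, 0.03 and 0.41 at day 7. They lay between 0.06 and 0.26 at day 12 and between -0.07 and 0.28 at day 18. The labels state no pairing, so these values are a hint from the data only. Probe sets chosen by the ankle mean and those fitted singly were added after seeing the data. Signal over background limits the 37 genes within the leukocyte margin.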
